A study of Mus musculus with 2 samples.

Results

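The chaperonin CCT is built from 8 subunits, encoded by Tcp1, Cct2, Cct3, Cct4, Cct5, Cct6a, Cct7 and Cct8, and all 8 genes were represented on the array among 8251 genes in all. The members were chosen by name, as the genes of the complex, with earlier results of these same arrays known, so their values are given as a description and without a test. Every probe set annotated to a member was taken, 13 in all. The series profiled 2 samples of sorted mouse bone marrow cells of the phenotype Lin-c-kit+Sca1+, which lack lineage antigens and carry the receptor Kit and the antigen Sca-1, a fraction enriched for stem and multipotent progenitor cells. Both samples belong to a single group, and the labels give no treatment, strain, age or second condition. Whether separate animals or sorts were used is not stated, so the spread between them may be technical. The RNA of both was amplified in 2 rounds before hybridisation, and the cells were measured in bulk, where fewer cells of a type and less RNA per cell cannot be told apart.

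CCT, also called TRiC, is the group II chaperonin of the eukaryotic cytosol. A pair of stacked rings, each holding every subunit once, encloses an unfolded protein and releases it folded after ATP hydrolysis. Actin and tubulin are its best known clients and depend on it for folding, and several WD repeat proteins, among them the mitotic regulator Cdc20 and G protein beta subunits, also pass through it. Prefoldin hands unfolded actin and tubulin to CCT, phosducin-like proteins act as its cofactors, and the tubulin cofactors take over tubulin after release.

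Signals are array intensities after quantile normalization, which gives both arrays the same distribution of values. For differences, signals under 20 were set to 20 (the floor) before taking log2, and every difference is log2 of sample 2 minus log2 of sample 1. The array carries 15 probe sets for genes of bacteria, and their 90th percentile on each array served as its control level (12.1 in sample 1, 8.91 in sample 2). Where a gene has several probe sets, the one with the largest mean on the log2 scale stands for the gene. The number of arrays, 2, limits the precision.

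All 8 subunit genes gave a signal above the control level in both samples, where 57.0% of all 8251 genes did. All 8 were also higher in sample 1 than in sample 2. Their differences ran from -2.11 for Cct3 to -0.20 for Cct8, with a median of -0.72, or 1.65-fold. Over the 4707 genes that passed the control level, differences had a median of 0, and 47.1% were higher in sample 1. Since many of those genes lay at the floor, the 3330 genes with both signals above 20 form a closer background. Among them 50.2% were higher in sample 1 and the median was -0.006, while all 8 subunits had both signals above 20. By 2-fold or more, 3 of the 8 subunits were higher in sample 1, against 11.0% of the genes above the control level and 11.9% of those with both signals above 20. None of the 8 was 2-fold higher in sample 2, against 9.62% of the genes above the control level. With 1 group of 2 samples no gene could be tested.

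**Figure D1:**
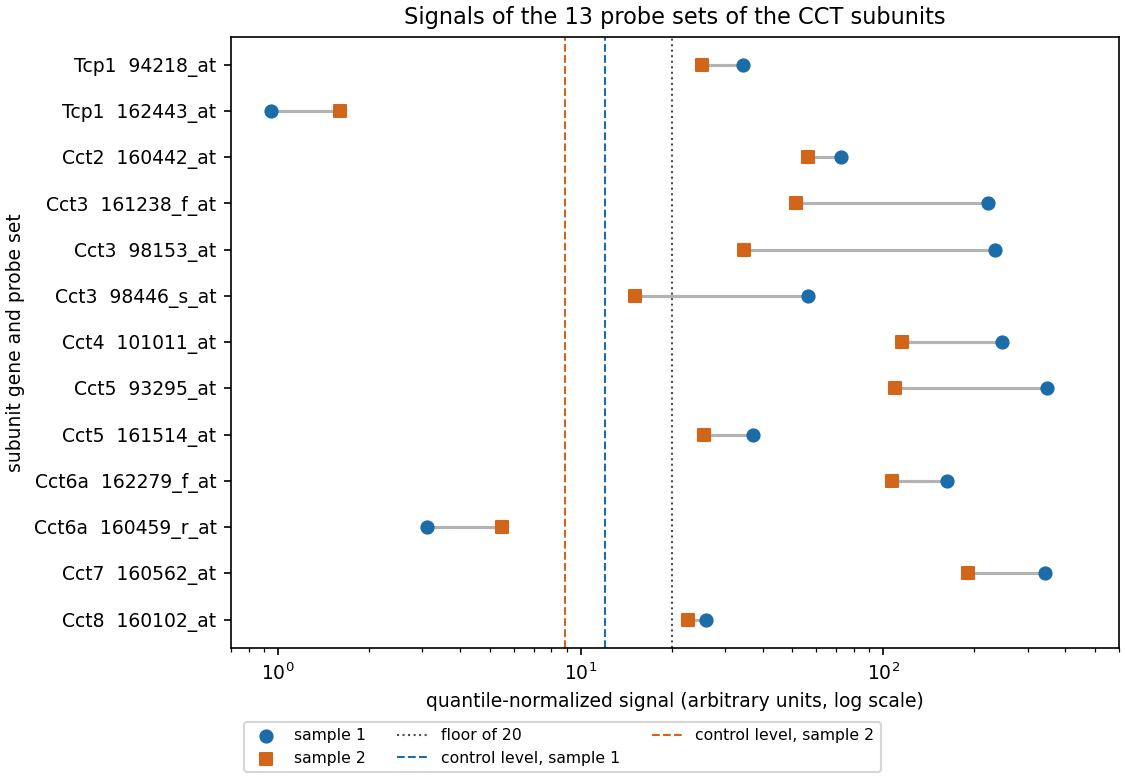
Quantile-normalized signal (arbitrary units, log axis) of each of the 13 probe sets of the 8 CCT subunit genes in sample 1 (circles) and sample 2 (squares), joined by a line, with the floor of 20 (dotted) and each sample's control level (dashed). The 11 probe sets that exceed the control level of both samples have the circle to the right of the square, and a probe set each of Tcp1 and Cct6a lies to the left of both control levels.

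Cct3, the gamma subunit, stood furthest apart, and its 3 probe sets all pointed the same way. The probe set with the largest mean, 161238_f_at, gave 222 in sample 1 against 51.3 in sample 2, a 4.32-fold difference (mean log2 signal 6.74 ± 1.49, SD, n = 2). The probe set 98153_at had 234 and 34.5, a 6.78-fold difference. The probe set 98446_s_at had 56.3 in sample 1 and 15.1 in sample 2, which is under the floor, so it was at least 2.81-fold higher in sample 1. In the naming of these arrays the suffixes _f_at and _s_at mark probes that can also match related transcripts, and 98153_at, which has neither, gave the largest difference of the 13.

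Cct5, the epsilon subunit, and Cct4, the delta subunit, came next, both of which can assemble into rings of their own when expressed alone. Cct5 had 347 in sample 1 and 109.7 in sample 2 by 93295_at, 3.17-fold apart (7.61 ± 1.18, SD, n = 2). Its second probe set, 161514_at, had 37.1 and 25.6, also higher in sample 1 but by only 1.45-fold. Cct4, with a single probe set, had 246 and 115.5, 2.13-fold apart (7.40 ± 0.77, SD, n = 2). These are the other members that passed 2-fold, and by 93295_at and the Cct4 probe set the weaker signal, that of sample 2, was still well above the floor.

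Cct7, the eta subunit, and Cct6a, the zeta subunit, were higher in sample 1 by less than 2-fold. Cct7 had 342 and 191, a difference of -0.84 (log2 signals of 8.42 and 7.58, SD 0.59, n = 2). Cct6a had 162 and 107 by 162279_f_at, a difference of -0.60 (7.04 ± 0.42, SD, n = 2). Its other probe set, 160459_r_at, had 3.1 and 5.5 and was not above the control level in either sample. The value of Cct6a therefore rests on a probe set whose probes can match related transcripts. Cct6b, the testis paralogue of Cct6a, had 17.8 and 25.6 by its own probe set, with the higher signal in sample 2.

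Tcp1, Cct2 and Cct8, the alpha, beta and theta subunits, differed least. Cct2, a subunit mutated in a congenital retinal blindness in humans, had 72.7 in sample 1 and 56.5 in sample 2, a difference of -0.36 (log2 signals of 6.18 and 5.82, SD 0.26, n = 2). Tcp1, the first member of the family to be described and named after the mouse t-complex where it lies, had 34.3 and 25.1 by 94218_at, a difference of -0.45 (4.87 ± 0.32, SD, n = 2). Its other probe set, 162443_at, had 0.95 and 1.6, under the control level in both samples. The probe set of its pseudogene Tcp1-ps1, looked up after the member values were seen, had 10.2 and 5.28 and was above the control level in neither sample. Cct8 had 26.1 and 22.7, a difference of -0.20 (4.60 ± 0.14, SD, n = 2). Tcp1 and Cct8 lay just above the floor in both samples.

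**Figure D2:**
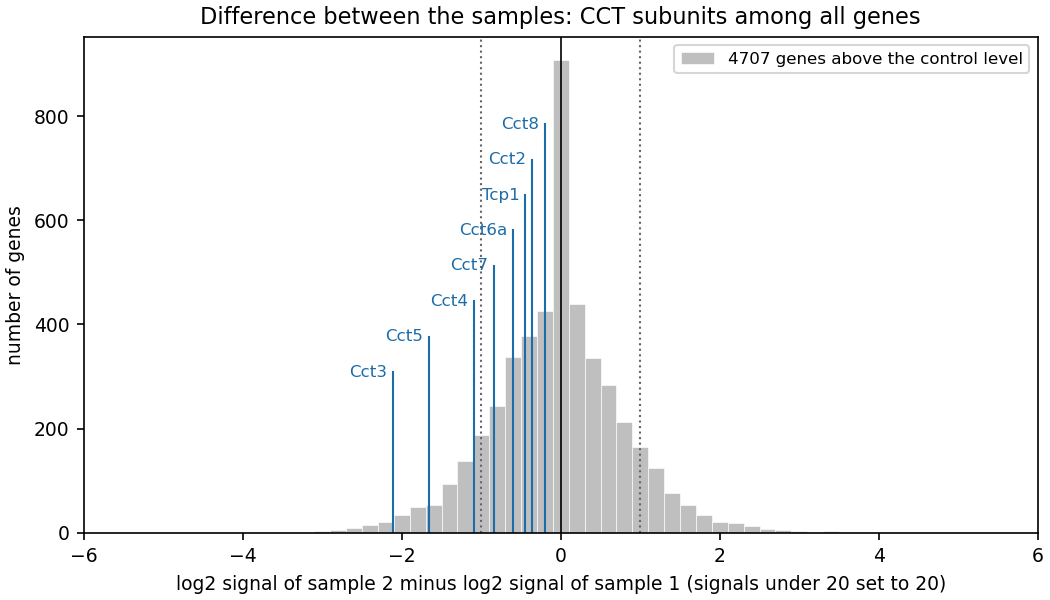
Histogram of the difference (log2 signal of sample 2 minus log2 signal of sample 1) of the 4707 genes above the control level, with the 8 CCT subunits as labelled lines whose heights only separate the labels. Dotted lines mark 2-fold in each direction; all 8 subunits lie left of 0, from -2.11 to -0.20, and 3 of them left of the dotted line.

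In the order of the differences, Cct3, Cct5, Cct4, Cct7, Cct6a, Tcp1, Cct2 and Cct8, no gap between neighbours exceeded 0.57. The SD between the samples over all genes above the control level was 0.59 on the log2 scale. Genes with both signals under the floor enter this SD with a difference of 0, which makes it smaller. The SD is a spread of single signals and not of gaps between differences, so the gaps were not judged against it. The ends of the order, Cct3 and Cct8, were 1.91 apart. The pair SD of Cct3, Cct5 and Cct4 was larger than that general spread, that of Cct7 was next to it at 0.595, and those of the other 4 were smaller. Only 1.08% of the genes above the control level had a lower difference than Cct3 and 3.08% a lower one than Cct5, whereas 37.3% had a lower one than Cct8. A difference at or below the median of the 8 was found for 17.5% of these genes. Among those with both signals above 20 it was found for 18.7%. Of the 4707 genes, 288 had a difference within 0.1 of the median of the 8. With 2 samples a pattern is a single number, so no gene is named for resembling the subunits.

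The 3 smallest differences belonged to the 3 subunits with the lowest mean signals. Across the 8 genes the Spearman correlation of the mean log2 signal with the difference was -0.67, a description over 8 points that share both arrays and enter both measures. At the level of probe sets, 11 of the 13 passed the control level of both samples, where 49.3% of all 12422 probe sets were. All 11 had the higher signal in sample 1, 5 of them by 2-fold or more, counting 98446_s_at at the floor. Every probe set of Cct3 is among these 5. The same shares over all probe sets were not computed. By gene, 47.1% of those above the control level were higher in sample 1, and 11.0% by 2-fold or more. Probe sets of the same gene share their transcript and are not independent.

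Several measures of the arrays themselves differed between the samples. The control probe sets for the 3' end of Actb gave 10.4 times the signal of those for its 5' end in sample 1 and 22.2 times in sample 2. For Gapdh the same ratio was 11.2 and 19.0, so by both genes the signal was more biased to the 3' end in sample 2. The 9 hybridisation controls are probe sets for transcripts added at the hybridisation step, not to the RNA of the cells. All 9 were higher in sample 2 after quantile normalization, by a median of 0.61 on the log2 scale. In the deposited values the median was 1.19. With the deposited values of sample 2 lowered by this 1.19, an alternative chosen after the data were seen, the median of the subunits was -1.99 and that of all genes -0.75. With that scaling 80.3% of the genes above the control level were higher in sample 1, and 38.9% were 2-fold higher. The part of transcript coverage and of scaling in the difference of the subunits was not tested.

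All 7 measured genes of 10 on a list for Lin-c-kit+Sca1+ cells were above the control level, where 57.0% of all 8251 genes were. Their summed signals were 1462 in sample 1 and 2963 in sample 2. Of the 7, 5 were higher in sample 2, 3 of them by 2-fold or more: Lyl1 (695 and 2224), Flt3 (137 and 322) and Meis1 (18.55 and 40.3). The other 2, Myb (490.4 and 232) and Kit, were higher in sample 1. Without Lyl1 the other 6 summed to 767 and 739, and Myb was the largest part of that sum in sample 1. Kit itself, the sorting antigen, gave 25.8 and 19.4, next to the floor, and Sca-1 was not analysed here. Markers of T and NK cells passed in 0 of 6 cases (summed signals 29.7 and 32.8), and B cell markers in 3 of 5 (129 and 124.6). Markers of mature myeloid cells passed in 3 of 6 cases (235 and 352), with Camp (91.8 and 269) higher in sample 2. Csf1r was higher in sample 1 by its strongest probe set (108 and 39.5) and nearly equal by another (34.75 and 37.35). Without Camp the list summed to 143 and 83.2, with Csf1r the largest part of both sums. The B cell and mature myeloid counts were near the 57.0% of all genes that passed, so they do not tell whether such cells were present. Erythroid markers passed in 3 of 4 cases (742 and 868). Among them Car1 (488 and 75.9) and Klf1 (215 and 80.5) were higher in sample 1 and Hba-a1 (30.1 and 670.3) higher in sample 2, and the part of such cells in the difference of the subunits was not tested.

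With quantile normalization the genes that work with CCT lay on both sides of 0. Scaled to the hybridisation controls, all 7 of the prefoldin, phosducin-like and tubulin cofactor genes above the control level were higher in sample 1. With that scaling 80.3% of all genes above the control level were too, with a median of -0.75. Of 6 prefoldin genes, 5 were measured and 3 were above the control level, where 57.0% of all genes were. Vbp1, which encodes prefoldin subunit 3, had 122 and 43.1, a 2.84-fold higher signal in sample 1. Pfdn5 was nearly equal in the samples (28.2 and 27.8), Pfdn6 had 43.4 and 54.7, and the median of the 3 was -0.02, or 0.02 with median-centring and -0.96 when scaled to the hybridisation controls. Pfdn2 had 35.2 in sample 1 and 7.75 in sample 2, where it was not above the control level, and Pfdn1 (1.1 and 0.7) was above it in neither.

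Both measured phosducin-like cofactors were higher in sample 1, as were 47.1% of all genes above the control level. Pdcl3 had 58.2 and 15.0, at least 2.91-fold apart. Txndc9, a thioredoxin-like protein that binds CCT, had 189 and 129.8, a difference of -0.54. Of the 4 measured tubulin cofactor genes Tbce (29.0 and 34.8) and the associated GTPase gene Arl2 (25.5 and 26.6) were above the control level, with slightly higher signals in sample 2, and Tbca (3.75 and 12.1) and Tbcb (3.0 and 5.05) were not above it in both. The medians of these lists, over 2 genes each, were -1.04 and 0.16. Scaled to the hybridisation controls, that of the tubulin cofactors was -0.51 and that of all genes -0.75.

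The clients divided between the samples with quantile normalization. Actb, cytoplasmic beta-actin, had 1466 and 1396 by its strongest probe set and 1209 and 79.7 by another, so its probe sets gave a difference of -0.07 and of -3.92. Actg1, gamma-actin, went the other way, with 197 and 467, 2.37-fold higher in sample 2. Actr3, a subunit of the actin-nucleating Arp2/3 complex, had 299 and 256. The median of these 3 actin genes was -0.07, or 0.081 with median-centring and -1.29 when scaled to the hybridisation controls. Actr1a, a subunit of the dynactin complex, had 13.2 and 7.05 and was not above the control level in sample 2. All 11 measured tubulin genes were above the control level, 7 higher in sample 1 and 4 higher in sample 2, with a median of -0.12. Scaled to the hybridisation controls, all 11 were higher in sample 1, with a median of -1.09. Over all genes above the control level 80.3% were higher in sample 1 with that scaling, with a median of -0.75. The strongest signals were those of Tuba1c (862 and 765) and Tubb5 (463 and 527). Both rest on _f_at probe sets, as do the values of Tuba1a, Tubb3 and Tubb6. Their probes can match related transcripts, so the tubulin values may not be those of separate genes.

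The tubulin genes furthest apart were Tubb4a and Tubg1 in the direction of sample 1. Tubb4a had 64.0 in sample 1 and was under the floor in sample 2 (15.6), so it was at least 3.2-fold higher in sample 1. Tubg1, gamma-tubulin of the centrosome, named after its values were seen, had 58.6 and 18.5, at least 2.93-fold. The largest difference towards sample 2 was 0.79 for Tubb2a (39.95 and 69.2), by a probe set whose partner gave 0.07. A probe set that names 4 genes, Tuba1a among them, and so entered no gene, was looked up after the other values were seen and had 1927 and 520.2, 3.70-fold higher in sample 1.

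Of 12 other clients measured, 9 were above the control level, 4 higher in sample 1 and 5 higher in sample 2, with a median of 0.22. Smn1, the survival motor neuron gene, had 73.8 and 294, 3.99-fold higher in sample 2. The activator of the anaphase-promoting complex Cdc20 had 315 and 148, 2.13-fold higher in sample 1. Ccne1, cyclin E1, had 65.0 and 23.0, the largest difference of the list in that direction at -1.50. The clients above the control level thus lay on both sides of 0. Scaled to the hybridisation controls, 8 of the 9 were higher in sample 1, with a median of -0.88. Over all genes above the control level 80.3% were, with a median of -0.75.

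The chaperonin of mitochondria belongs to group I and consists of Hspd1 (Hsp60) with its lid Hspe1 (Hsp10), listed here with the mitochondrial Hsp70 gene Hspa9. Hspd1 had 157 and 207 and was higher in sample 2, also by its second probe set (39.2 and 45.0). Hspe1 had 231 and 73.1, 3.16-fold higher in sample 1, and Hspa9 372 and 73.0, 5.09-fold higher in sample 1. The ring and the lid of this chaperonin thus had opposite directions, except when scaled to the hybridisation controls, where Hspd1 was also higher in sample 1 (-0.86). The median of all genes above the control level was -0.75 with that scaling.

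**Figure D3:**
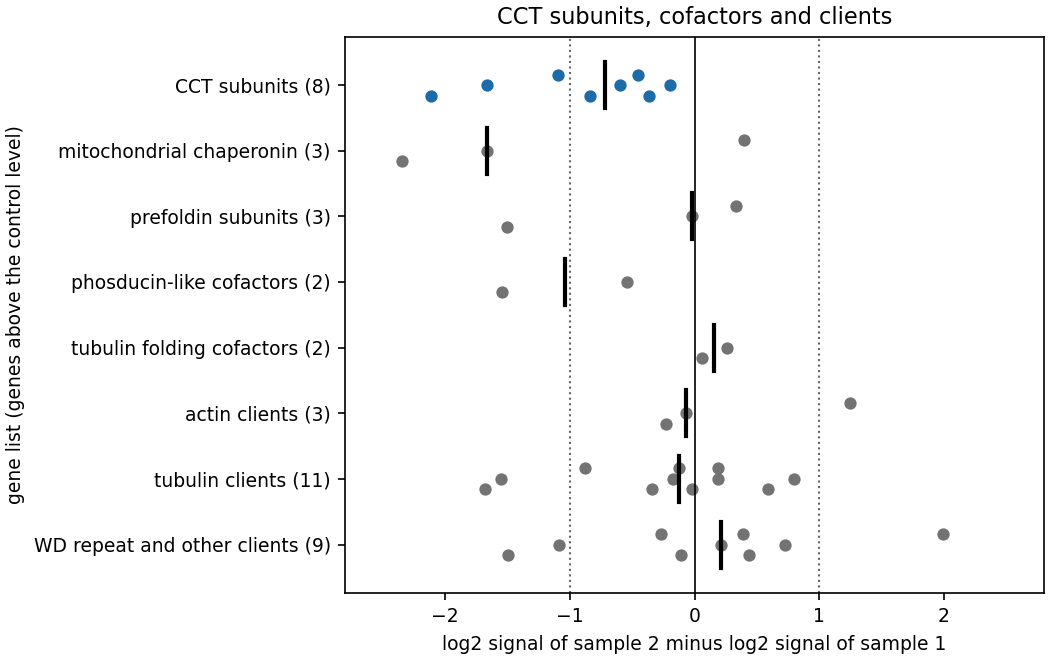
Difference (log2 signal of sample 2 minus log2 signal of sample 1) of each gene above the control level (points) in the list of CCT subunits and 7 lists of related genes, with the number of genes in brackets, the list median as a black bar and 2-fold as dotted lines; vertical offsets only separate points. With quantile normalization the 8 subunits lie left of 0, and the tubulin clients (7 left, 4 right) and other clients (4 left, 5 right) on both sides. Scaled to the hybridisation controls (not shown) every list median lies left of 0, as does that of all genes (-0.75).

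Promoter sequences of 7 of the 8 genes were read from RefSeq for GRCm38.p6, as 9 windows of 250 bases before to 50 after a transcription start, since Cct2 and Cct5 have 2 starts each. No window was available for Cct4, so its promoter was not searched. Shown are the 150 bases before the outermost start of the subunits furthest apart between the samples, Cct3 and Cct5, and of those least apart, Cct2 and Cct8, with capitals for the motifs searched. They are Cct3 at chr3:88296985-88297134 (plus strand), Cct5 at chr15:31601847-31601996 (minus strand), Cct2 at chr10:117063853-117064002 (minus strand) and Cct8 at chr16:87495870-87496019 (minus strand), each written 5′ to 3′ on the strand of its gene.
Cct3: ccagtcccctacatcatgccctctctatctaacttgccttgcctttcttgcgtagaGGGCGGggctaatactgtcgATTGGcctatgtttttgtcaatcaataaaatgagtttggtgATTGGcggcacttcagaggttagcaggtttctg
Cct5: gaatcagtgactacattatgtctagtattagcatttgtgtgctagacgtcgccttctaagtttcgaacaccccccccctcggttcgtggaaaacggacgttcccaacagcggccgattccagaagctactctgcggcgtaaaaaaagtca
Cct2: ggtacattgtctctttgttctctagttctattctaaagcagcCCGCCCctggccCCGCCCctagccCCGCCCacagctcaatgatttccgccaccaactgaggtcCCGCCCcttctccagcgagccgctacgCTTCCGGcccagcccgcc
Cct8: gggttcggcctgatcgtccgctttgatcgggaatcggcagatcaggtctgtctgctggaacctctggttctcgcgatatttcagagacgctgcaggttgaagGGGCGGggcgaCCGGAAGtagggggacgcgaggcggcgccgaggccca

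The motifs, on both strands and with none containing another, were GGGCGG (the GC box bound by Sp1), CCAAT (bound by NF-Y), CCGGAAG (ETS factors), TGCGCA (the core of the NRF1 site), CACGTG (the E-box) and GAANNTTC (a heat shock element). A GC box was found in 8 of the 9 member windows and in all 7 genes, where 35.7% of the 32851 windows of the table hold it. Member windows had a median GC content of 60.3% and all windows one of 52.7%. CCAAT was found in the windows of Tcp1, Cct3, Cct6a and Cct7 (37.4% of all windows), CCGGAAG in those of Tcp1, Cct2 and Cct8 (8.86%), and TGCGCA in those of Cct3, Cct5 and Cct6a (7.76%). GAANNTTC was found in a window of Cct2 only (7.86%), and CACGTG in none of the 9 (7.15%). Other forms of the heat shock element were not searched. In the stretches shown, Cct3 holds 2 CCAAT boxes, both on the opposite strand, and 1 GC box. Cct2 holds 4 GC boxes and 1 ETS motif, Cct8 holds 1 of each of these, and the stretch of Cct5 holds none of the motifs searched. These are matches of letters, not measured sites, and no binding was measured.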

How the data were processed

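The deposited values are signal intensity values on a linear scale, 1 for each of 12488 probe sets of an Affymetrix mouse array in 2 samples. How the authors summarised and scaled them is not stated in the sources; both columns have a mean of 53.944. They were quantile-normalized here because their 2% trimmed means, 32.8 and 30.9, still differed. No scanner files or detection calls were used. Genes came from the platform's annotation: of 12422 probe sets that are not array controls, 10833 named 1 gene, 396 several and 1193 none, and those naming several entered no gene. By gene ID 10817 of the 10833 matched RefSeq, which changed 0 symbols. The members and lists were chosen with earlier results of these data known. Named genes were all members and, of each related list, all measured genes or, above 6, the 2 highest signals and the largest difference in each direction; genes outside this rule are marked, and single cell type markers were named after their values were seen. Without a second group no p-value was computed. Counts and scaling were checked on simulated arrays with less noise than these and with changes only in strong signals. That check does not cover the spread of these arrays or signals near the floor. Alternatives were the deposited and median-centred scaling, floors of 10 and 40, an offset of 32, the mean over probe sets, a fold of 1.5, other control levels and each sample alone. Python 3.11.15 with NumPy 2.4.6, pandas 2.3.3 and SciPy 1.17.1 was used. Protein sequences were not used here.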

Additional observations from a re-analysis of the deposited data

How the results depend on the processing

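Under 6 alternatives of scaling, floor, offset and probe set choice, the median difference of the subunits lay between -0.80 (deposited scaling) and -0.60 (mean over a gene's probe sets). All 8 were higher in sample 1 under 5 of the 6, where 44.8% to 53.1% of all genes above the control level were. With a floor of 40, 6 were (31.0% of all genes), and Tcp1 and Cct8 had no difference because both their signals lay under it. The number 2-fold apart was 3, or 2 with median-centring or an offset of 32. The share of all genes 2-fold higher in sample 1 was 6.52% to 14.3% with 3 apart, 9.9% with median-centring and 4.46% with the offset. At 1.5-fold the number was 5, with no share over all genes computed. Scaled to the hybridisation controls, chosen after the data were seen, the median was -1.99 (-1.24 relative to all genes) with 6 subunits 2-fold apart. With that scaling 38.9% of all genes above the control level were 2-fold higher in sample 1. All subunits 2-fold apart under these settings were higher in sample 1. Without the _f_at, _r_at and _s_at probe sets, also chosen afterwards, 7 subunits were left, with a median of -0.84. The count above the control level was 8 of 8 with each sample left out in turn (8 to 8), where 71.0% of all genes passed without sample 1 and 64.3% without sample 2. It was also 8 of 8 with the median (85.4% of all genes) or highest (53.0%) bacterial control. Where every probe set of a gene had to pass, it was 6 of 8 (44.9%). With the deposited scaling the medians of the 7 related lists kept their sign. With median-centring, added afterwards for the lists, prefoldin turned to 0.019 and actins to 0.081. Scaled to the hybridisation controls, all 7 were below 0, from -2.92 to -0.51, with tubulin cofactors (-0.51) and other clients (-0.88) turned. The median of all genes above the control level was -0.75 with that scaling. By single probe sets, the difference of Cct3 by 98153_at was -2.00 with the offset. No paired analysis was possible because the series has 1 group. Signals near the floor, those of Tcp1 and Cct8, limit what difference could be seen.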
